A study of Mus musculus with 14 samples.

Results

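The effect of Drp1 genotype on gene expression in the mouse superior mesenteric artery was read from 14 of the 14 mice in the series, as the difference between 8 mice labelled flox/+ for Drp1 and 6 mice labelled +/+, with the condition of the mouse (normal or ischemia) as an additive term. All genes of the count table that passed a filter on low counts (17693 of 46095 symbols) entered the comparison, without a further choice of genes. The flox/+ mice are called Drp1 KO mice and the +/+ mice WT mice, following the published names. The published methods describe the KO mice as heterozygous (Drp1 +/-) for a CRISPR/Cas9 frameshift aimed at an early exon of the gene. The labels name a flox allele and no Cre, so whether the allele was deleted in these arteries cannot be told from them. The paper itself reports fewer reads of the targeted exon and less Drp1 protein on western blots of its KO mice. It also reports weaker Drp1 immunofluorescence in their mesenteric arteries, under normal conditions and after ischemia.

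The mice were C57BL/6 and 8 weeks old. Under normal conditions there were 3 WT and 4 KO mice, and after ischemia, produced by bleeding from a catheterised femoral artery, there were again 3 WT and 4 KO mice. By the sample labels the ischemic period was 2 h. The published account gives a longer period. RNA from the whole artery was sequenced, and the deposited table holds raw read counts of the 14 mice for 46095 gene symbols. In such bulk RNA, fewer cells of a type and less RNA per cell cannot be told apart. The paper counts the mice as separate individuals, but neither source says whether they came from separate litters.

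Drp1, the product of Dnm1l, is a large GTPase of the dynamin family that assembles around mitochondria and divides them. Adaptors on the outer mitochondrial membrane (Mff, Mief1, Mief2 and Fis1) recruit it, whereas mitofusins and Opa1 act the other way and fuse the membranes. Fission of this kind serves the sharing of mitochondria between dividing cells, the removal of damaged ones by mitophagy and the release of apoptotic factors, and mice without any functional Dnm1l do not complete embryonic development. In arterial smooth muscle, Drp1 is known for its part in proliferation and contraction.

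Total counts ranged from 25612646 to 40255851 per mouse, so that 3 counts, the least the depth was taken to show, stood for 0.0745 to 0.117 CPM, the count of a gene scaled to a common library size. The biological coefficient of variation between mice of a group was 0.528, which makes the spread between mice and not the depth the limit for most genes. On the first principal component, with 25.4% of the variance, the WT mice (from -104.5 to 104) reached beyond the KO mice (from -53.7 to 94.4) at both ends. The summed level of 4 Y-linked genes was 110 to 158 CPM in 3 of the 6 WT mice and 5 of the 8 KO mice and at most 0.0307 CPM in the others. The sample descriptions carry the mark of lane 1 for normal WT mouse 3 and of lane 8 for the other mice. The summed level of 6 smooth muscle cell markers was 7316 to 37360 CPM in WT and 10700 to 31020 CPM in KO mice, and that of 10 endothelial cell markers 812 to 1885 and 689 to 1459 CPM, so the defining genes of both cell types of the labelled artery were present in every mouse. Genes of atrial muscle reached summed levels of 555, 1314 and 8877 CPM in normal KO mouse 4, ischemic KO mouse 3 and ischemic KO mouse 4, against 36.6 to 130.5 CPM in the other 11 mice. These 3 mice are KO mice, so the levels of muscle genes in them are given apart from the others.

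Dnm1l itself (chromosome 16, 16312228 to 16359038, GRCm38) was slightly lower on average in KO mice, with an interval that included 0. Under normal conditions its level was 63.8, 65.6 and 90.9 CPM in the WT mice and 54.8, 60.8, 57.9 and 62.2 CPM in the KO mice. After ischemia it was 81.0, 63.1 and 80.9 CPM in the WT mice and 72.6, 69.0, 76.0 and 59.99 CPM in the KO mice. Every normal KO mouse was thus below every normal WT mouse, by a narrow margin, while the ischemic groups overlapped. Over both conditions the level was 74.2 CPM ± 11.6 (SD, n = 6) in WT and 64.1 CPM ± 7.50 (SD, n = 8) in KO mice. The fitted log2 fold change was -0.22, a level 13.9% lower, with a 95% interval from -0.46 to 0.03. In edgeR's quasi-likelihood test the unadjusted p was 0.0808, and the FDR, which adjusts over all genes tested, was 0.708. A two-sided exact permutation test that moved the genotype labels only within each condition gave p = 0.0506 over 1225 arrangements, of which the smallest p that can be reached is 0.000816. Between 1849 and 2930 reads lay behind each value, so depth did not limit this comparison. The counts are sums over the whole gene, so they do not show whether the reading frame was intact. They measure neither the protein nor the reads of the targeted exon, which the paper reports as lower in KO mice.

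**Figure D1:**
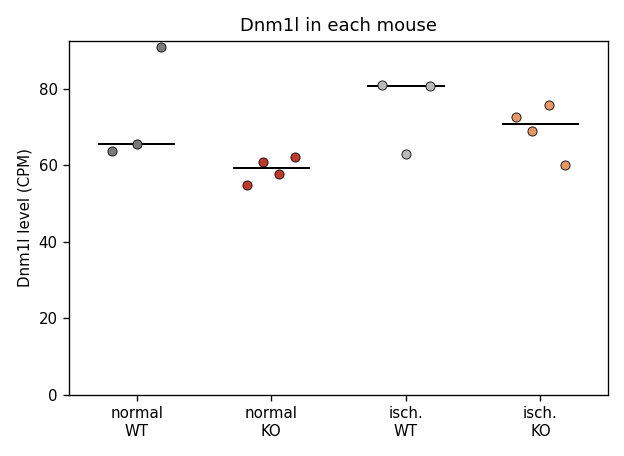
Level of Dnm1l in CPM (vertical axis, from 0) in each of the 14 mice, in the 4 groups along the horizontal axis, with a bar at each group's median. The normal KO mice, at 54.8 to 62.2 CPM, lie just under the lowest normal WT mouse at 63.8 CPM, and the ischemic groups overlap.

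Across 17693 genes tested, 0 were called at a false discovery rate (FDR, the Benjamini-Hochberg adjusted p) under 0.05 with a fold change over 1.5 in edgeR's quasi-likelihood test (background share 0%). The smallest FDR was 0.541. An unadjusted p under 0.05 was reached by 1293 genes (7.31% of those tested), 508 of them higher in KO mice (2.87%) and 785 lower (4.44%). DESeq2 with the same design called 35 genes higher (0.198%) and 25 lower (0.141%), and all 60 were among the genes at an unadjusted edgeR p under 0.05. The 24 genes with the smallest edgeR p and a fold change over 1.5, 12 in each direction, were all among those 60. Of the 35 genes that DESeq2 called higher, 8 (among them Camk1d, Nppa and several muscle genes) had their highest levels in the 3 mice with atrial muscle reads. The number of calls turned on 1 mouse: without normal WT mouse 2, edgeR called 8 genes higher and 23 lower. The share at the unadjusted limit moved as well, to 18.3% of genes without that mouse (1826 higher, 1565 lower), 5.71% without normal WT mouse 1 (576 and 481) and 3.38% without the 3 mice with atrial muscle reads (223 and 393), and the side with more genes changed between these fits. With limma-trend it was 7.41% (688 and 623). Counts of members at that limit are given for all 14 mice. The genes described from here on are therefore those with the smallest p, members of lists, or genes said to be chosen after their values were seen, most with the standard error (SE) of the log2 fold change, and for every one of them the FDR in edgeR was at least 0.541.

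Some genes separated the genotypes in every mouse. In 19 genes (0.107% of those tested) each KO mouse was above each WT mouse of its own condition, in both conditions, and in 40 genes (0.226%) each was below. Over the 1225 arrangements of the labels within conditions, a gene separates this way in a given direction in a share of 0.000816. The share of the higher genes lay near that figure and that of the lower genes above it, and genes are not independent. Among the 12 higher genes with the smallest p, 7 were of that kind, and among the 12 lower genes, 3 were. Both sets were chosen on these same values.

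Camk1d, a calcium/calmodulin-dependent protein kinase, was higher in KO mice with a log2 fold change of 1.46 (SE 0.30). Its levels under normal conditions were 4.22, 2.84 and 3.13 CPM in WT and 4.37, 8.31, 6.57 and 8.47 CPM in KO mice. After ischemia they were 1.37, 3.10 and 1.82 CPM in WT and 4.61, 6.73, 8.95 and 11.52 CPM in KO mice. All 8 KO mice were above all 6 WT mice, with the lowest KO mouse close to the highest WT mouse. The highest were the 3 mice with atrial muscle reads, and without them the log2 fold change was 1.15.

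Tcap, which encodes titin-cap, a small protein at the ends of the sarcomere, had the smallest p of all genes (FDR 0.541 in edgeR) and a log2 fold change of 1.87 (SE 0.34). The WT mice held 76.5, 126.5 and 60.3 CPM under normal conditions and 47.3, 55.9 and 33.8 CPM after ischemia. The KO mice held 332, 192, 271 and 109 CPM under normal conditions and 270.4, 112, 228 and 359 CPM after ischemia. Only normal KO mouse 4 fell within the range of the WT mice of its condition. Without the 3 mice with atrial muscle reads, its log2 fold change was 1.81.

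Fxyd2, the gamma subunit that modulates the sodium/potassium pump, was 0.973 to 2.87 CPM in the WT mice (median 2.46) and 3.62 to 8.20 CPM in the KO mice (median 4.79), with no overlap. Its log2 fold change was 1.21 (SE 0.27). Mcpt4, a protease of connective tissue mast cells, was 2.35 to 6.06 CPM in the WT mice and 6.72 to 23.2 CPM in the KO mice, also without overlap, and its log2 fold change was 1.25 (SE 0.28).

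Cited2, a transcriptional coregulator that competes with hypoxia-inducible factor for its coactivators, was 10.6 to 31.3 CPM in WT and 25.8 to 65.2 CPM in KO mice (log2 fold change 1.09). In each condition, the genotypes differed in the same direction, with log2 fold changes of 0.98 under normal conditions and 1.2 after ischemia. Hcn2, a hyperpolarisation-activated pacemaker channel, was 0.472 to 3.55 CPM in WT and 3.24 to 13.8 CPM in KO mice (log2 fold change 2.20). Ischemic KO mouse 4 (13.8 CPM) and normal KO mouse 4 (9.20 CPM), both with atrial muscle reads, were the highest. Over the other settings run, its log2 fold change was 1.51 at the lowest. The highest WT mouse for Hcn2 was normal WT mouse 2. Wipf3, which binds the Wiskott-Aldrich family of actin regulators, and Smim5, a small membrane protein, had log2 fold changes of 1.32 and 0.96.

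Slc13a3, a sodium-coupled carrier of dicarboxylates such as succinate, was near the detection limit in WT mice, with 7 counts over the 6 mice and 3 of them at 0. The 8 KO mice had 341 counts, from 0.184 to 3.45 CPM. The ratio of the summed levels was 32.4, with a 95% counting interval of 15.5 to 81.2 that covers counting error only. The predicted transcripts Gm32468 and Gm15241 were likewise near the limit in WT mice, at 0 to 0.748 CPM and 0 to 1.17 CPM in WT mice against 0.802 to 15.7 CPM and 1.31 to 10.6 CPM in KO mice. Gm14403, a predicted gene of the zinc finger kind with close relatives in the genome, was 5.46 to 12 CPM in WT and 8.97 to 25.5 CPM in KO mice. Reads of such relatives may have been divided between them in a way that is not known here.

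Sh3pxd2a stood out among the lower genes. It encodes Tks5, a scaffold of podosomes and invadopodia, the actin-rich contacts with which cells degrade matrix. Under normal conditions its level was 369.9, 429 and 448 CPM in WT and 196, 248, 222 and 232 CPM in KO mice. The ischemic mice held 357, 434 and 422 CPM in WT and 337, 325, 319 and 299 CPM in KO mice. No KO mouse reached the lowest WT mouse, and the gap was wide under normal conditions and narrow after ischemia. The log2 fold change over both conditions was -0.62 (SE 0.13). It was -0.89 under normal conditions and -0.34 after ischemia, and the test of the difference between the conditions gave an FDR of 0.946 in edgeR.

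Picalm, a clathrin adaptor that sizes endocytic vesicles, was 394 to 591 CPM in normal WT and 264 to 350.1 CPM in normal KO mice. After ischemia it was 573 to 724 CPM in WT and 405 to 485 CPM in KO mice, again without overlap. Its log2 fold change was -0.60 (SE 0.13). Ajuba, a LIM protein of cell junctions and the Hippo pathway, was lower in each condition without overlap, at -0.97 on the log2 scale (SE 0.23).

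Arhgap23 and Arhgap12, both GTPase-activating proteins, had log2 fold changes of -0.63 and -0.62, and Dok4, a docking protein of tyrosine kinases, -0.64. Bcor, a corepressor in a Polycomb complex, was 34.9 to 145.3 CPM in WT and 35.8 to 50.9 CPM in KO mice (log2 fold change -0.94). Trp53bp1, a mediator of the response to double-strand breaks, was 21.0 to 60.9 CPM in WT and 17.4 to 42.7 CPM in KO mice (log2 fold change -0.92). Arid3a, a DNA-binding factor, Tmtc2, a mannosyltransferase of the endoplasmic reticulum, and Smad6, an inhibitor of BMP signalling, had log2 fold changes of -1.29, -1.42 and -1.32. For Arhgap23, Bcor, Trp53bp1, Arid3a, Arhgap12, Tmtc2 and Smad6 the lowest WT mouse under normal conditions was normal WT mouse 2. For Tmtc2 that mouse, at 9.84 CPM, lay below all 8 KO mice (15.8 to 30.9 CPM), while the other 5 WT mice held 45.7 to 87.5 CPM. Ascl2, a basic helix-loop-helix factor, had 63 counts over the 6 WT mice and 1 count over the 8 KO mice. The ratio of WT to KO was 94.7, with a 95% counting interval of 16.4 to 3800, and normal WT mouse 3 had no read either.

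**Figure D2:**
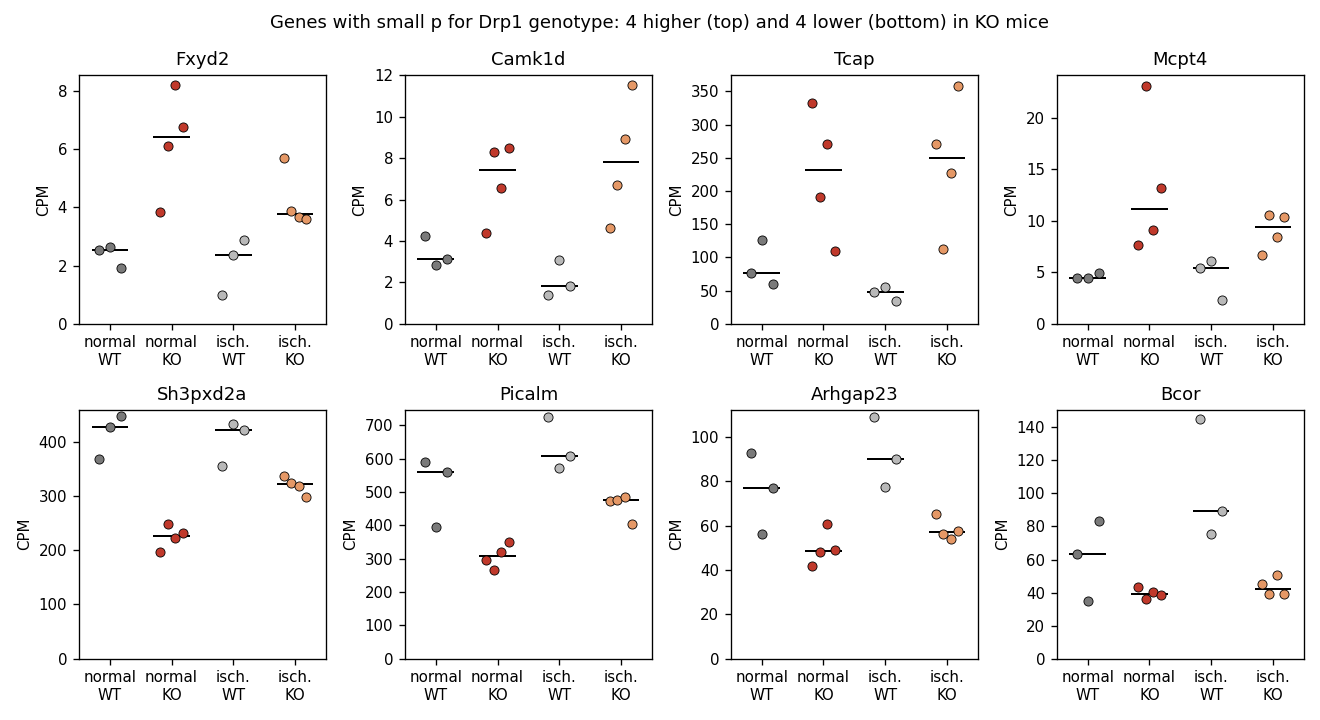
Level in CPM (vertical axes, from 0) of 8 genes in each mouse, by group, with a bar at the group's median. Upper panels show 4 genes that were higher in KO mice (Fxyd2, Camk1d, Tcap and Mcpt4), and lower panels 4 that were lower (Sh3pxd2a, Picalm, Arhgap23 and Bcor). Normal WT mouse 2, at 56.2 CPM for Arhgap23 and 34.9 CPM for Bcor, is the low WT point of the normal group in the lower right panels.

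Among the genes without overlap, the following were chosen after their values were seen. Cnot1 and Cnot2, the scaffold and a subunit of the CCR4-NOT deadenylase that shortens poly(A) tails, were at log2 fold changes of -0.43 and -0.39. Cnot1 was 111 to 169.6 CPM in WT and 87.1 to 102 CPM in KO mice. Tet3, which oxidises methylcytosine, was at -0.54, Smarcc2, a subunit of the SWI/SNF remodelling complex, at -0.26, Huwe1, a ubiquitin ligase, at -0.30, and Dync1h1, the dynein heavy chain, at -0.35. Arnt, the partner of the hypoxia-inducible factors and of the dioxin receptor, was 68.6 to 88.0 CPM in WT and 55.6 to 68.0 CPM in KO mice, a log2 fold change of -0.28. Cdkn2b, which encodes the cell cycle inhibitor p15, was 2.06 to 3.02 CPM in WT and 0.713 to 1.87 CPM in KO mice, a log2 fold change of -1.04. Of the genes higher without overlap, Atg2a, a lipid transfer protein of the forming autophagosome, was 0.669 to 1.215 CPM in WT and 1.218 to 2.88 CPM in KO mice, and Slc8a3, a sodium/calcium exchanger, 1.77 to 2.69 CPM and 2.89 to 7.32 CPM. Hephl1, a copper-dependent ferroxidase, was 0 to 1.10 CPM in WT and 1.23 to 7.85 CPM in KO mice.

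The size of the transcripts moved with these differences. Genes lower in KO mice at an unadjusted p under 0.05 had a median exonic length of 6374 bases, against 4010 bases for all genes tested and 3310 bases for the higher ones (GENCODE M21, with a length for 90.4% of the genes tested, and for 90.6% of the lower and 95.3% of the higher ones). In 2507 genes over 8000 bases, 264 were lower and 44 higher, and the median log2 fold change was -0.11, whereas in 2006 genes of 1000 to 2000 bases 44 were lower and 98 higher, with a median of 0.10. Genes over 8000 bases took 18.8% of the counts in normal WT mouse 2 and 25.3% to 27.6% in the other 5 WT mice, and 19.95% to 25% in the KO mice. The part of transcript length, or of RNA quality, in the genotype difference was not tested.

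Both conditions gave an estimate of the genotype effect from different mice. Of the 361 genes lower in KO mice under normal conditions at an unadjusted p under 0.05 (2.04% of genes), 268 were also lower after ischemia (74.2%, against 52.8% of all genes). Of the 568 genes higher under normal conditions (3.21%), 277 were higher after ischemia (48.8%, against 47.1% of all genes). In the other direction of choice, 408 of 636 genes lower after ischemia (3.59% of genes, 64.2% of them lower, against 52.4% of all genes) and 342 of 510 genes higher after ischemia (2.88% of genes, 67.1% of them higher, against 47.6%) lay on the same side under normal conditions. Over all 17693 genes, 54.4% had the same sign in both conditions, and Spearman's rho across genes was 0.107, where genes are not independent replicates. At p under 0.05 in both conditions there were 27 of the 568 higher and 37 of the 361 lower genes. After ischemia alone, 2.88% of all genes were higher and 3.59% lower at that limit. For the difference of the effect between conditions, 0 genes passed in edgeR, 765 reached an unadjusted p under 0.05 (4.32%) and the smallest FDR was 0.946.

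**Figure D3:**
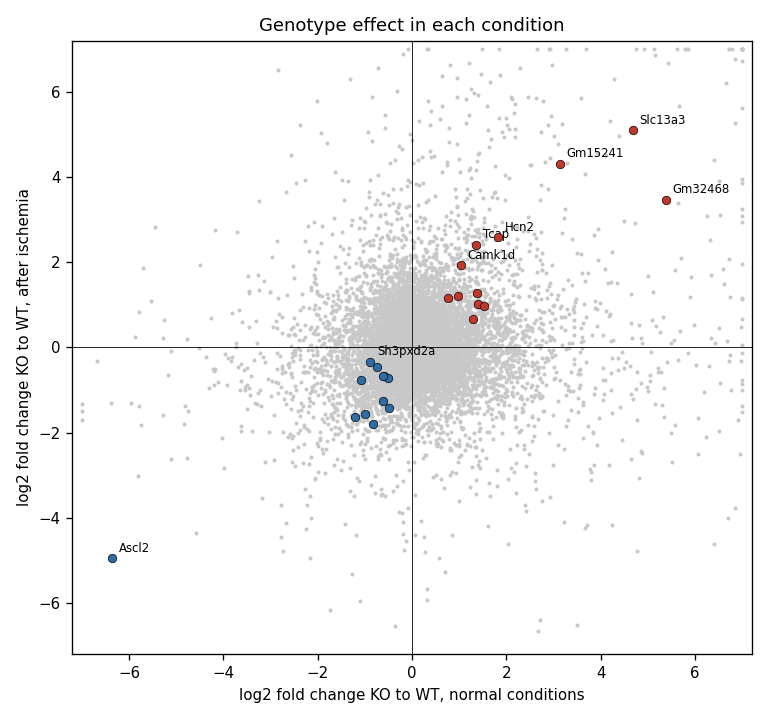
Log2 fold change of KO to WT mice under normal conditions (horizontal axis) and after ischemia (vertical axis) for 17693 genes (grey), with values past 7 drawn at the edge. The 12 higher (red) and 12 lower (blue) genes with the smallest p over both conditions were chosen on these mice and lie in the upper right and lower left by that choice, and the grey cloud shows little slope.

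The machinery of fission and fusion was described first among the gene lists, since Drp1 belongs to it. Of its 25 genes, edgeR called 0, and 0 reached an unadjusted p under 0.05, against 7.31% of all genes at that unadjusted limit. In this and the other lists, genes counted as higher or lower are those past that limit, and none was called. Over all genes, 2.87% were higher and 4.44% lower at that limit. The median log2 fold change was 0.07 (all genes -0.01), at -0.08 under normal conditions and 0.20 after ischemia. The smallest p in the list was that of Inf2, a formin that drives actin-assisted constriction of mitochondria, at -0.33 on the log2 scale (SE 0.17). Inf2 was 58.4 to 109 CPM in WT and 49.1 to 91.5 CPM in KO mice. Of 27 mitophagy and autophagy genes, 0 had an unadjusted p under 0.05 (median 0.09), and the smallest p belonged to Rnf41, a ubiquitin ligase that acts on Parkin (-0.20, SE 0.10), and Atg12, a ubiquitin-like conjugate of autophagosome growth (0.25, SE 0.15).

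The median of 25 apoptosis genes was -0.09. At an unadjusted p under 0.05, 3 were lower (12%, against 4.44% of all genes lower) and 0 higher. These were Bmf, a BH3-only protein (-0.63, SE 0.19), the death receptor Fas (-0.46, SE 0.17) and Bik, a further BH3-only protein (-0.73, SE 0.31). Bmf after ischemia was 39.1 to 44.5 CPM in the WT mice and 18.3 to 29.1 CPM in the KO mice, without overlap, whereas under normal conditions it overlapped. Of 34 genes of glutathione metabolism and mitochondrial antioxidants, 1 was higher and 1 lower (median 0.24). Gstm1, a glutathione transferase with close paralogs, was at -0.41 (SE 0.17), and Hmox1, the inducible heme oxygenase, at 0.74 (SE 0.35), with ischemic KO mouse 3 at 54.4 CPM and all other mice at 7.42 to 20.6 CPM.

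In the list of the integrated stress response and mitochondrial chaperones, the median was 0.11. At an unadjusted p under 0.05, 2 of 24 genes were higher and 1 lower (12.5%, against 7.31% of all genes). Ddit3, which encodes the stress factor CHOP, was 17.8 to 20 CPM in normal WT mice and 24.1 to 38.1 CPM in normal KO mice, while the ischemic groups overlapped (log2 fold change over both conditions 0.60, SE 0.16). Gdf15, a circulating stress cytokine, was 2.62 to 6.78 CPM in ischemic WT mice and 0.713 to 2.33 CPM in ischemic KO mice, and was at most 1.36 CPM in every normal mouse (log2 fold change -1.45, SE 0.49). Sesn2, a stress-induced inhibitor of mTORC1, was at 0.83 (SE 0.37).

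Genes of the respiratory chain had a median above 0 over both conditions. The median over 91 nuclear genes of oxidative phosphorylation was 0.33 over both conditions, -0.16 under normal conditions and 0.80 after ischemia, with 1 gene at an unadjusted p under 0.05 (higher) and 84 of the 91 above 0, against 8676 of all 17693 genes. The difference between the conditions was not tested for the list. The 81 mitochondrial ribosomal protein genes went the same way (0.22, -0.10 and 0.60), with 1 higher. Markers of brown adipocytes, the mitochondria-rich fat cells that surround many vessels, moved alongside, with a median of 0.59 over both conditions, -0.16 under normal conditions and 1.49 after ischemia. Ucp1, the uncoupling protein of these cells, was 40.2, 3948 and 639 CPM in normal WT and 557, 2784, 1149 and 4072 CPM in normal KO mice. Ischemic mice held 66.3, 776 and 304 CPM in WT and 604, 3272, 2640 and 2921 CPM in KO mice. Elovl3, a fatty acid elongase of the same cells, spanned 0.0295 to 82.6 CPM in WT and 15.04 to 248 CPM in KO mice (log2 fold change 2.92, SE 1.10). The oxidative phosphorylation median was -0.36 with the level of the brown adipocyte markers as a covariate, 0.75 without normal WT mouse 2 and 0.02 without the 3 mice with atrial muscle reads. Their part in the result was not tested further.

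Within the nuclear oxidative phosphorylation list, the smallest p was that of Cox6a2, the heart and muscle isoform of a cytochrome oxidase subunit. It was at 11.5, 25.8 and 231.7 CPM in the 3 mice with atrial muscle reads and at most 1.03 CPM in all others. Atp5g1, an ATP synthase subunit, was 119 CPM in ischemic KO mouse 4 and 8.97 to 26.3 CPM elsewhere. Of the 13 mitochondrially encoded protein genes, 0 had an unadjusted p under 0.05 (median -0.06, with ATP8 at -0.61, SE 0.39, and ND4L at -0.39, SE 0.26). Of 78 cytosolic ribosomal protein genes, 1 was lower, Rps27 (-0.73, SE 0.21), the next being Rpl3 (-0.22, SE 0.11), and the median was -0.09. Many of these genes have processed copies in the genome, so their counts are uncertain. The 2 mitochondrial ribosomal genes with the smallest p were Mrpl57 (0.50, SE 0.23) and Mrpl21 (0.42, SE 0.21).

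**Figure D4:**
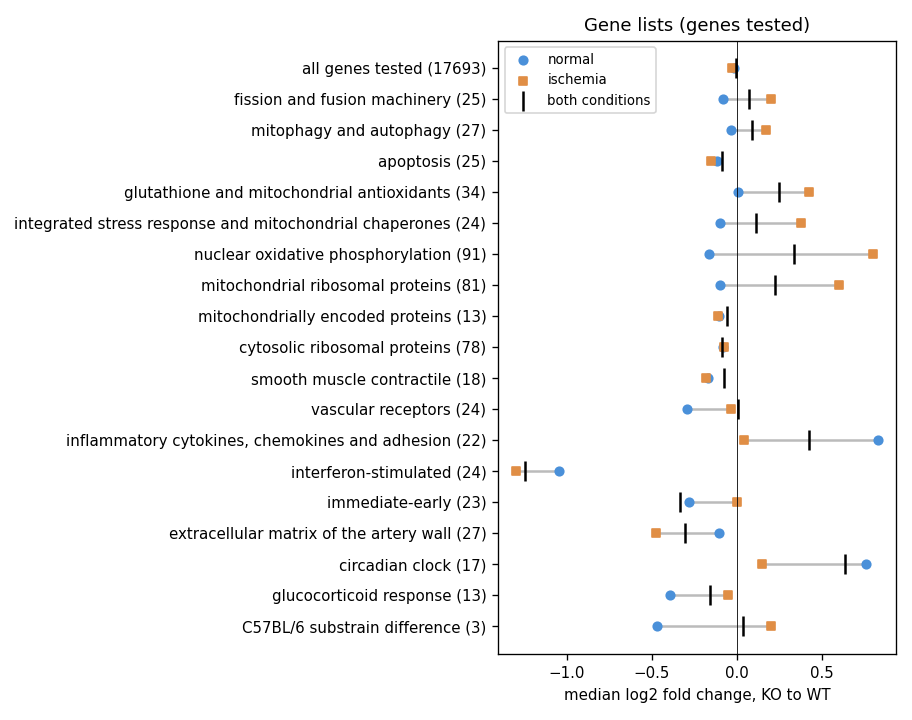
Median log2 fold change of KO to WT mice (horizontal axis) for each gene list shown (vertical axis, with the number of genes tested), under normal conditions (circles), after ischemia (squares) and over both (black bars), with all genes tested in the top line. The interferon-stimulated list lies farthest to the left, at -1.24 over both conditions, and the lists of oxidative phosphorylation and mitochondrial ribosomal proteins lie on either side of 0 in the 2 conditions.

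The matrix of the artery wall held a larger share of lower genes. Of its 27 genes, 7 were lower and 0 higher at an unadjusted p under 0.05 (25.9%, against 4.44% of all genes lower), and the median was -0.30, -0.08 without the 3 mice with atrial muscle reads and 0.016 with the level of the brown adipocyte markers as a covariate. Mfap5, a glycoprotein of elastic microfibrils, was at -1.29 (SE 0.33), Lox, which crosslinks collagen and elastin, at -1.70 (SE 0.45), and Eln, elastin itself, at -1.85 (SE 0.53). Lox was 536, 33.0 and 405 CPM in normal WT and 56.7, 108, 75.0 and 48.2 CPM in normal KO mice. In ischemic mice it was 301, 457 and 743 CPM in WT and 279, 251, 150.3 and 194 CPM in KO mice. Eln was 9301, 469 and 6652 CPM in normal WT and 1082, 1050, 1112 and 590.4 CPM in normal KO mice. In both genes, normal WT mouse 2 was the lowest of all mice, the ischemic KO mice were below the ischemic WT mice for Lox, and for Eln ischemic KO mice 1 and 2 (6536 and 5639 CPM) lay above ischemic WT mouse 1 (4435 CPM). Col4a1 (-0.45), Fbn1 (-0.64) and Tnc (-0.78), which encode a basement membrane collagen, fibrillin-1 and tenascin C, were also lower. Eln, Col4a1, Fbn1 and Tnc were chosen after their values were seen.

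Contractile genes of smooth muscle showed no common shift. Of 18, 1 was higher and 1 lower (median -0.08). Myocd, the master coactivator of the contractile program, was 35.4 to 559 CPM in WT and 74.9 to 184 CPM in KO mice (-1.24, SE 0.37). Normal WT mouse 2 held the 35.4 CPM, below every KO mouse, and the other WT mice held 261 to 559 CPM, above every KO mouse. That mouse was set apart here after its values were seen. The higher one was Casq2, a calcium store protein of heart and smooth muscle, at 10.2, 24.9 and 169 CPM in the 3 mice with atrial muscle reads and at most 2.70 CPM in all others. Among 24 vascular receptors, 2 were higher and 1 lower (12.5%, against 7.31% of all genes, median 0.01). These were the bradykinin receptor Bdkrb2 (1.13, SE 0.41) and the adrenoceptors Adra1b (0.90, SE 0.36) and Adra1d (-0.55, SE 0.22). Bdkrb2 was at 1.94 under normal conditions and 0.39 after ischemia. Adra1b was 13.7 CPM in ischemic KO mouse 4 and at most 5.44 CPM in every other mouse.

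The kinases Rock1 and Rock2, which keep smooth muscle contracted by inhibiting myosin phosphatase, were at -0.92 (SE 0.33) and -0.58 (SE 0.24). Rock1 was 222, 68.8 and 356 CPM in normal WT and 174, 120, 176 and 129 CPM in normal KO mice. The ischemic mice held 611, 202 and 397 CPM in WT and 237, 137, 166 and 119.9 CPM in KO mice, and the groups overlapped in each condition. Rac2, the Rac of blood cells, was at 1.503 (SE 0.50), from 0.821 to 6.08 CPM in WT and from 1.28 to 30.7 CPM in KO mice.

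The clock genes had the highest share of genes past the unadjusted limit among the lists of pathways. The molecular clock is a feedback loop in which Arntl (BMAL1) with Clock or its relative Npas2 drives Per, Cry and the factors Dbp, Tef, Hlf and Nr1d2 from E-boxes, while Nr1d1 and Nr1d2 repress Arntl through ROR elements. Of 17 genes, 5 were higher and 3 lower in KO mice at an unadjusted p under 0.05 (47.1%, against 7.31% of all genes). Clock, at -0.78 (SE 0.20), and Npas2, at -1.99 (SE 0.51), had the smallest p. Arntl at -2.27 and the higher genes Tef (0.84), Nr1d2 (0.64), Dbp (1.80), Hlf (0.87) and Bhlhe40 (0.75) were named after their values were seen. The activators were thus lower, and the genes named as higher were those past the limit. Of the 17 genes, 12 lay above 0 and 5 below. Nr1d1 was not higher, at 213.5 to 307.7 CPM in normal WT and 117.8 to 232.1 CPM in normal KO mice. After ischemia it was 223.1 to 457.2 CPM in WT and 204.3 to 399.8 CPM in KO mice. Per1 overlapped as well, at 85.4 to 220.3 CPM in normal WT and 99.95 to 303.7 CPM in normal KO mice.

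The promoters of Tef and Arntl, which hold the letters of such elements, are given as examples of where they lie. Capitals mark CACGTG, the E-box, in Tef (chr15:81802423-81802722, plus strand) and AGGTCA, the core of a ROR element, in Arntl (chr7:113207261-113207560, plus strand), both from 250 bases before to 50 after a start site in RefSeq on GRCm38.p6.
Tef: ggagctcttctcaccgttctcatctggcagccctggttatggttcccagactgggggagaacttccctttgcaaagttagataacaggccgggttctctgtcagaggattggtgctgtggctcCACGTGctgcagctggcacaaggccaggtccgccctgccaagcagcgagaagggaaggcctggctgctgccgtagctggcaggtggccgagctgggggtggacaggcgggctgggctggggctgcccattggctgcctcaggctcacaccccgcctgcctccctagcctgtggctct
Arntl: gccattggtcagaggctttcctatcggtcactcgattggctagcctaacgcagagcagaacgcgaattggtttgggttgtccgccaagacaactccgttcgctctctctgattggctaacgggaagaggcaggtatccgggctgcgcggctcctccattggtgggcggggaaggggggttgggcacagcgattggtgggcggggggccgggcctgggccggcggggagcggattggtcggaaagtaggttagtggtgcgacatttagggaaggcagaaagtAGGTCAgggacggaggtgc
Of the 17 clock genes, 14 had a promoter in that table. On either strand, 5 of them (Per1, Cry1, Tef, Ciart and Bhlhe41) held CACGTG, against 8.09% of 27025 genes, and 4 (Arntl, Clock, Per1 and Nr1d2) held AGGTCA, against 18.1%. Of the higher genes named above, only Tef was among those with CACGTG, and Nr1d2, also higher, held AGGTCA. So few matches, in short windows of 14 of the 17 genes, cannot show whether the letters sort the higher from the lower genes. A match is a description of the letters and not of a bound site.

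Under normal conditions Arntl was 60.7, 1.78 and 30.7 CPM in WT and 3.36, 1.71, 0.768 and 4.33 CPM in KO mice. After ischemia it was 49.1, 37.0 and 40.8 CPM in WT and 21.5, 30.8, 10.3 and 36.0 CPM in KO mice. Dbp ran the other way, at 1.92, 194 and 17.8 CPM in normal WT, 257, 264, 270.6 and 117.7 CPM in normal KO, 9.64, 9.08 and 18.4 CPM in ischemic WT and 62.8, 30.4, 85.4 and 10.4 CPM in ischemic KO mice. The ischemic KO mice all had less Arntl than the ischemic WT mice, and normal WT mouse 2 had the levels of a KO mouse for both genes. No source used here gives the time of day at which a mouse was killed, so time of day and genotype cannot be told apart for these genes. A fit with the level of Arntl as a covariate was added after the data were seen. In it Npas2 was at -0.55, Lox at -0.56, Eln at -0.51, Tcap at 1.75, Camk1d at 1.69 and Sh3pxd2a at -0.59. There edgeR called 0 genes, with 367 higher and 374 lower at an unadjusted p under 0.05 (4.19%). Arntl itself had a genotype log2 fold change of -2.27, so this fit cannot part the clock from the genotype. The cell cycle genes Wee1, a clock-controlled inhibitor of mitotic entry, and Foxm1, a driver of mitotic genes, were at 0.96 (SE 0.23) and 1.11 (SE 0.28), also named after their values were seen.

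Interferon-stimulated genes were the list with the lowest median, at -1.24 over both conditions, -1.04 under normal conditions and -1.30 after ischemia. These genes encode antiviral sensors and effectors and are switched on together by interferons, through an element of the type TTTC, any 2 bases and TTTC again. Of 24 genes, 10 were lower and 0 higher at an unadjusted p under 0.05 (41.7%, against 4.44% of all genes lower), and 23 of the 24 were below 0. Ifit2, which binds foreign RNA, was at -1.17 (SE 0.37), and Ddx58, the RNA sensor RIG-I, at -1.09 (SE 0.39). Ifit1, Ifit3, Mx2 and Rsad2 (viperin), at -2.08, -2.14, -2.07 and -1.51, were named after their values were seen.

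Of the 24 genes, 16 had a promoter in the RefSeq table and 8 held TTTC, any 2 bases and TTTC on either strand (Ifit1, Ifit3, Oas1a, Oas3, Rsad2, Ddx58, Ifih1 and Stat2), against 3.99% of 27025 genes. Ifit1 (chr19:34640639-34640938, plus strand) and Ifit3 (chr19:34583279-34583578, plus strand), neighbours on chromosome 19, each carried it at 2 places, in capitals.
Ifit1: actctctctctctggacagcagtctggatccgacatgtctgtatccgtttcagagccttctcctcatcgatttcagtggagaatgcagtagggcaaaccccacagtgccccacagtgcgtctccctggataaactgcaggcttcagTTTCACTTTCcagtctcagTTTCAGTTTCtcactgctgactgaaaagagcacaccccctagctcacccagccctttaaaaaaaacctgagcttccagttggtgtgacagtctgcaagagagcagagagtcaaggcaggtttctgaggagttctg
Ifit3: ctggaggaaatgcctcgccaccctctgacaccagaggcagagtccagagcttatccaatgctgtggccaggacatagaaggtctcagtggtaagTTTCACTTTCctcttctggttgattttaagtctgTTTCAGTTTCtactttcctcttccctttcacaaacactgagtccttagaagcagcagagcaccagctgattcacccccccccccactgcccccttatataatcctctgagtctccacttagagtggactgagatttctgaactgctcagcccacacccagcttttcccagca
The levels of these genes followed single mice. Ifit1 was 2.89, 187 and 23.9 CPM in normal WT, 14.1, 6.57, 11.3 and 30.4 CPM in normal KO, 1.76, 81.5 and 2.04 CPM in ischemic WT and 4.87, 3.32, 17.1 and 3.86 CPM in ischemic KO mice. Normal WT mouse 2 and ischemic WT mouse 2 were the 2 highest, and the other 4 WT mice, at 1.76 to 23.9 CPM, lay within the range of the KO mice or below it. The list's median was -0.68 without normal WT mouse 2 and -0.30 without ischemic WT mouse 2. For Ifit3 the same 2 WT mice held 287 and 154 CPM, normal KO mouse 4 held 120.2 CPM, and the other WT mice 2.92 to 59.7 CPM. Under limma's voom with sample quality weights, Ifit1 and Mx2 were at 0.03 and 0.05, on the other side of 0.

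Of 23 immediate-early genes, 1 was lower, Nr4a1 (-1.14, SE 0.44), an orphan nuclear receptor, followed by Fosl2 (-0.57, SE 0.27), a subunit of AP-1, and the list's median was -0.34. Nr4a1 was 212 to 658 CPM in normal WT and 56.2 to 114 CPM in normal KO mice, while the ischemic groups overlapped (261 to 507 and 345 to 633 CPM), and the difference between the conditions had an FDR of 0.946 in edgeR. Of 22 inflammatory genes, 2 were lower, Nfkbiz (-0.62, SE 0.22) and Nfkbia (-0.32, SE 0.13), which both encode IkB proteins of the NF-kB pathway. The list's median was 0.42, at 0.82 under normal conditions and 0.04 after ischemia. It ranged from -0.38 to 1.15 over the other settings run and lay below 0 in 3 of them. Of 13 glucocorticoid-responsive genes, 1 was lower, Cdkn1a (-1.14, SE 0.45), which encodes the cell cycle inhibitor p21, the next being Sult1a1 (-0.30, SE 0.18), and the median was -0.16. Cdkn1a was at -2.12 under normal conditions and -0.06 after ischemia, with an FDR of 0.946 for the difference, and at -0.55 over both without normal WT mouse 1. Of 3 genes known to differ between C57BL/6 substrains, Wdfy1 was lower (-0.62, SE 0.27) and the other two were above 0.

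Several markers of blood and resident immune cells were higher in KO mice. All 5 erythroid markers were higher at an unadjusted p under 0.05 (100%, against 2.87% of all genes higher, median 1.13), and their summed level was 107 to 251 CPM in normal WT, 346 to 592 CPM in normal KO, 4.62 to 109 CPM in ischemic WT and 75.9 to 186 CPM in ischemic KO mice. Alas2, the erythroid enzyme of heme synthesis, was 4.11 to 7.67 CPM in normal WT and 13.4 to 18.4 CPM in normal KO mice, without overlap, whereas the ischemic groups overlapped (0.608 to 4.29 and 2.43 to 6.35 CPM). Hbb-bs, an adult beta globin with a near-identical neighbour, was at 1.15 (SE 0.47). Of 9 macrophage markers 4 were higher (44.4%, against 2.87% of all genes higher) and 0 lower, with a median of 0.72. Adgre1, the F4/80 antigen, was at 1.23 (SE 0.46) and C1qc, a chain of complement C1q, at 0.75 (SE 0.35). The summed macrophage level was 851.5, 486 and 428 CPM in the 3 mice with atrial muscle reads. Ischemic KO mice 1 and 2 held 181 and 213 CPM, within the 93.4 to 326 CPM of the ischemic WT mice. Normal WT mice held 238.5 to 517 CPM, and normal KO mice 1, 2 and 3 held 302, 878 and 599 CPM. Of 6 T cell markers tested 2 were higher (33.3%), Cd3g and Cd3e, chains of the T cell receptor complex. Normal KO mouse 4 held 4.36 and 8.25 CPM of them, and all other mice were at or below 1.89 CPM. For the T cell markers the median was 1.73 over all mice and 0.25 without the 3 mice with atrial muscle reads. The mast cell list, added after the data were seen, had 4 of 9 genes higher (44.4%, median 1.25). Besides Mcpt4 these were Cpa3 (1.99), Tpsb2 (0.90) and Fcer1a, of which the 6 WT mice had 2 counts and the 8 KO mice 100. No gene passed the unadjusted limit among the tested markers of fibroblasts (7), white adipocytes (7), neutrophils (4), B cells (4), plasma cells (3), mesothelium (8), nerve and glia (5), lymphatic endothelium (4), pancreatic acini (2) or adrenal cortex (1), nor among those of smooth muscle or endothelium. Of 5 skeletal muscle markers 1 was higher, Ckm, the muscle creatine kinase, at 10.8, 24.7 and 161.5 CPM in the 3 mice with atrial muscle reads and at most 4.56 CPM in all others. Of 4 markers of intestinal epithelium 1 was higher and 1 lower. The part of any of these cell types in the genotype difference was not tested.

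Genes of heart muscle showed several of the widest differences. Myl7, the atrial light chain of myosin, was 43.3, 83.1 and 618 CPM in normal KO mouse 4, ischemic KO mouse 3 and ischemic KO mouse 4, 5.11 CPM in ischemic WT mouse 1 and at most 0.710 CPM in the other 10. Without those 3 KO mice its log2 fold change was -1.30. Sln, sarcolipin, and Nppa, the atrial natriuretic peptide, were highest in the same 3 mice, at 8.28, 22.3 and 185 CPM and at 1.503, 7.89 and 16.1 CPM. Of 11 atrial muscle genes tested, 8 were higher at an unadjusted p under 0.05 with all mice, and their median of 3.81 was -0.58 without the 3 mice. The hepatocyte markers Serpina1a and Ttr, with 1 and 2 counts over the WT mice, were highest in normal KO mouse 4 at 2.98 and 5.21 CPM. Whether tissue from outside the artery entered these samples was not tested.

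**Figure D5:**
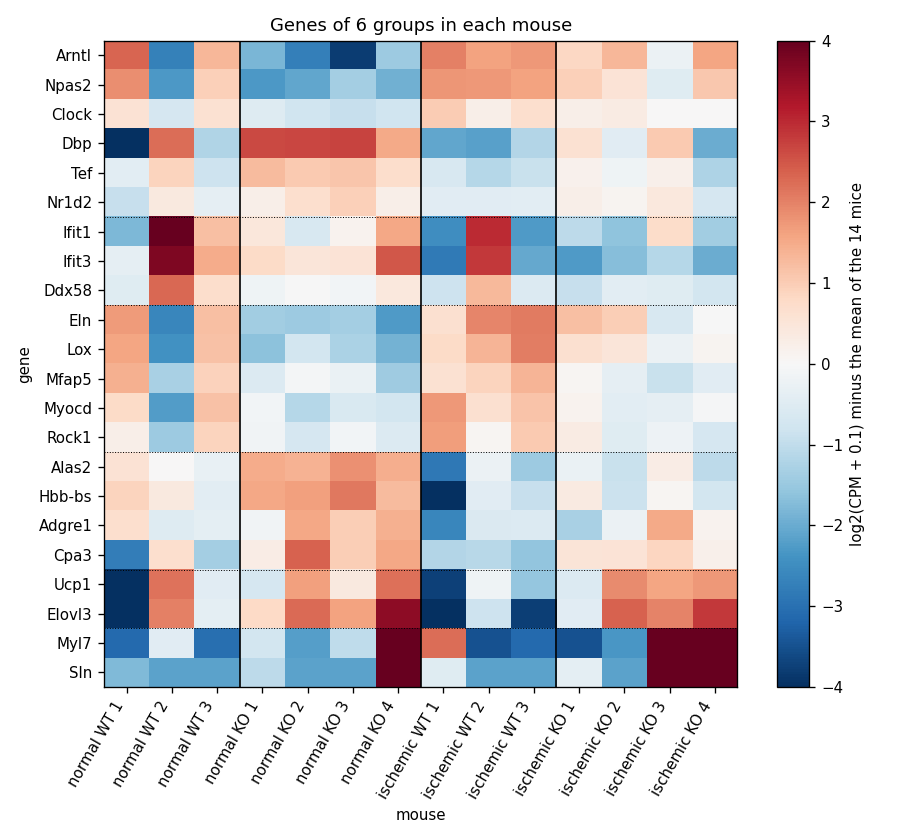
Each cell shows log2(CPM + 0.1) of a gene (vertical axis) in a mouse (horizontal axis) minus the gene's mean over the 14 mice, from blue (lower) to red (higher), with the colour scale ending at 4 on either side. Solid lines part the 4 groups of mice and dotted lines 6 groups of genes, which are clock, interferon-stimulated, artery wall, blood and immune, brown adipocyte and atrial muscle genes. Normal WT mouse 2 has the clock and matrix pattern of the normal KO mice, and normal KO mouse 4 and ischemic KO mice 3 and 4 hold the atrial muscle genes.

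Genes close to Dnm1l on chromosome 16 differed about as often as genes at large. Of 95 tested genes whose starts lay within 5000000 bases of it, 2 were higher and 3 lower at an unadjusted p under 0.05 (5.26%, against 7.31% of all genes), and their median log2 fold change was -0.03. The 3 nearest were Yars2, a mitochondrial tyrosyl-tRNA synthetase (0.38, SE 0.31), Pkp2, a desmosome protein of heart muscle (0.83, SE 0.50), and Fgd4, an exchange factor for Cdc42 (0.01, SE 0.20). Pkp2 was 23.1 CPM in ischemic KO mouse 4 and at most 7.46 CPM in every other mouse.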

How the data were processed

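The submitters' processing notes name HISAT2 2.0.4 and the genome build mm10. The counter, its annotation and whether it used strand are not given in the sources used here, so overlapping, antisense and near-identical genes are uncertain. The authors deposited raw read counts per gene symbol and mouse, without normalization, and 0 columns of single mice were left unused. Mice were grouped by genotype and condition as labelled.

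Of 46095 symbols, 27727 had a count and 17693 passed edgeR's filterByExpr. They were scaled by TMM and fitted with genotype and condition as additive terms by the quasi-likelihood test of edgeR 4.0.16 in R 4.3.3, with Benjamini-Hochberg adjustment over all genes tested, an FDR limit of 0.05 and a fold limit of 1.5. Levels are CPM on TMM-scaled libraries, and log2 fold changes used a prior count. Counting intervals cover counting error only. DESeq2 1.42.0, limma 3.58.1, other scalings, filters and covariates, and leaving out each mouse were alternatives, and the fit was tested on simulated data.

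Genes were named as Dnm1l, the 12 per direction with the smallest p and a fold over 1.5, which were not called, the 2 members of each list with the smallest p, and the 3 tested genes nearest to Dnm1l. Genes next to Dnm1l and some marker genes are given by count alone. The members and lists were chosen with earlier results of these data known, and the mast cell and atrial muscle lists were added after the data were seen. Promoters are from RefSeq (GRCm38.p6). The summary of 1 gene list is not reported here.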

Additional observations from a re-analysis of the deposited data

Results flagged for a closer look

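In each KO group of 4, the mouse farthest from the others was compared with the group's range. For normally distributed values this marks about 1 in 20 groups. It marked 35 of 223 groups of 4 over the named genes. The WT groups of 3 were too small to examine.

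Normal KO mouse 4 stood apart for muscle genes, with Cox6a2 at 11.5, Casq2 at 10.2, Ckm at 10.8, Nppa at 1.503, Myl7 at 43.3 and Sln at 8.28 CPM. It also stood apart for the hepatocyte genes Serpina1a (2.98 CPM) and Ttr (5.21 CPM), for Rac2 (30.7 CPM), for the interferon-stimulated genes Ifit3 (120.2 CPM) and Rsad2 (53.9 CPM) and for Arid3a (5.28 CPM), all above the other normal KO mice. In the same mouse Dbp (117.7 CPM) and Eln (590.4 CPM) were below the others. Slc8a3 was highest in normal KO mouse 3, at 7.32 CPM.

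After ischemia, KO mouse 4 stood apart with Cox6a2 at 231.7, Casq2 at 169, Ckm at 161.5, Myl7 at 618, Sln at 185, Atp5g1 at 119, Pkp2 at 23.1, Hcn2 at 13.8 and Ajuba at 6.26 CPM, and with a low Picalm at 404.8 CPM. Ischemic KO mouse 3 was above its group for Slc13a3 (3.45 CPM), Hmox1 (54.4 CPM), Rac2 (11.2 CPM), Ifit2 (24.3 CPM), Ifit1 (17.1 CPM), Mx2 (8.01 CPM) and Fcer1a (0.672 CPM), and held the one read of Ascl2 in KO mice (0.0292 CPM). Ischemic KO mouse 1 was highest for Fxyd2 (5.71 CPM) and lowest for Atg2a (1.218 CPM).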

How the results depend on the processing

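Against 0 calls in each direction, DESeq2 called 35 genes higher and 25 lower, limma's voom with sample quality weights 3 and 4, and edgeR with the brown adipocyte markers as a covariate 0 and 2. Leaving out 1 mouse gave 0 to 8 higher and 0 to 23 lower, all but 0 without normal WT mouse 2. The other settings run (DESeq2 size factors, upper-quartile scaling, 2 other filters, no condition term, a 4-group fit and limma-trend) gave 0 and 0, as did, chosen after seeing the data, Y-linked genes or Arntl as a covariate and the fit without the 3 mice with atrial muscle reads. No source used here says what the replicate numbers stand for, and they were not taken to pair the mice: 11 of 19 same-numbered pairs across groups had deviations correlated over 0.1 (median r 0.12), against 9 of 54 differently numbered pairs (median -0.045). With a replicate block edgeR called 0 and 0 genes, 467 and 507 had an unadjusted p under 0.05, and Dnm1l was at -0.19. Dnm1l ranged from -0.26 to -0.12 without 1 mouse. The 24 top genes kept their direction in all 336 values without 1 mouse and all 335 under other settings. They were chosen by their small p in these same mice, so a kept direction was to be foreseen and is no support for them. Fgd4, near 0, changed side with the replicate block (-0.065), voom (-0.027), the brown adipocyte (-0.17) and Arntl (-0.050) covariates, without the 3 mice (-0.12), and without single mice (-0.052 to 0.11). Ifit1 (0.033) and Mx2 (0.052) changed side under voom, Yars2 (-0.18) with the brown adipocyte covariate, Arntl (0.0081) with itself as covariate and Myl7 (-1.30) and Ckm (-0.18) without the 3 mice. The causes were not tested. Depth limits only genes near 3 counts per mouse, such as Slc13a3 and Ascl2.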
